A study of Mus musculus with 12 samples.

Results

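The regions described here are wide domains of dimethylated lysine 79 of histone H3 (H3K79me2) in vehicle-treated CD8 T cells over which no peak was called in cells given the DOT1L inhibitor EPZ-5676. A region was a DMSO peak of 5000 bases or more that shared 0 bases with every EPZ peak. There were 1179 such regions among 3724 wide DMSO peaks, which is 31.7% (95% interval 30.2 to 33.2), and among 12578 DMSO peaks of any width. The other 2545 wide peaks shared bases with an EPZ peak. Without the width minimum, 9196 of 12578 DMSO peaks, 73.1%, had no EPZ peak, beside the 31.7% of wide ones. The regions were selected on DMSO peak width and on EPZ overlap, so both are given as descriptions and carry no test.

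The cells were CD8 T cells of male mice of the strain CreERT2;DOT1L-flox;OT-I with the genotype wt;wt;het. Read in the order of the strain name, which the labels do not spell out, this is wild type at the Cre and floxed Dot1l alleles and heterozygous for the OT-I T cell receptor transgene. After activation through CD3 and CD28 they were cultured to day 8 and dosed at 2-day intervals. All groups shared this mouse line and culture. The vehicle group received 0.1% DMSO, and the other groups received EPZ-5676 or SGC-0946, each at 10 mM as labelled, a unit that could not be checked here. Each of the 3 treatments had 2 biological replicates, with an immunoprecipitate and an input from each, 12 libraries in all. Yeast chromatin with HA-tagged H3 and no H3K79 methylation was added to all of them. The values come from 1 deposited list of broad peaks per treatment, so the spread between replicates is not measured and no test across samples was possible. Intervals are exact binomial (Clopper-Pearson) and cover counting of peaks or genes only.

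DOT1L is the methyltransferase that places methyl groups on H3K79. It travels with elongating RNA polymerase II, and H3K79me2 is laid down mainly over the beginning and the first part of the body of transcribed genes. EPZ-5676 (pinometostat) and SGC-0946 compete with the methyl donor S-adenosylmethionine in the enzyme's active site. In dividing cells the mark is thought to be lost largely as marked histones are diluted or exchanged.

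The DMSO list covered 68.38 Mb, the EPZ list had 4443 peaks over 18.07 Mb and the SGC list had 55 peaks over 0.1379 Mb. The lists do not show how deeply any library was sequenced. A region without an EPZ peak is one where none was called, which is not a measured level of 0. DMSO peaks lay in 38 of 38 listed genes of T cell receptor signalling, which include Cd3e, Cd8a and Lck. They lay in 0 of 17 myeloid and 0 of 20 non-hematopoietic marker genes, in 1 of 13 B cell, 3 of 12 CD4 T cell and 6 of 16 natural killer cell marker genes. Over all protein-coding genes the count was 7563 of 21900 (34.5%). Beside that share, nothing is read from the small CD4 T cell and natural killer cell counts. Cd4 and Foxp3 had no DMSO peak, but 3 genes of the CD4 T cell list did.

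Sequences at the start of transcription are shown for the widest and most enriched regions that lay over one. Among the 10 widest regions, those of Sipa1l1, Tcf12 and Syne3 covered a start of the host gene listed in the RefSeq promoter table, and among the 10 of highest fold enrichment that of Pigx did. Each sequence is read 5′ to 3′ on the gene's strand from 250 bases before to 50 bases after the start, from RefSeq on GRCm38.p6. Capitals mark a GC box, GGGCGG or its reverse complement CCGCCC, the letters bound by SP family factors. The windows are chr12:82169766-82170065 on the plus strand for Sipa1l1, chr9:72111152-72111451 on the minus strand for Tcf12, chr12:104998628-104998927 on the minus strand for Syne3 and chr16:32099678-32099977 on the minus strand for Pigx.
Sipa1l1: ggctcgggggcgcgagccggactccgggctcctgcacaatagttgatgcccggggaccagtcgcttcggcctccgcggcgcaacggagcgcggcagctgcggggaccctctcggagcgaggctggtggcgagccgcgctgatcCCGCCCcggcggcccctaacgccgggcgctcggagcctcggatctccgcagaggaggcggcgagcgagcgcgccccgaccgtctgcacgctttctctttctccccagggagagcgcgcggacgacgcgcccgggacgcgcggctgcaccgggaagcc
Tcf12: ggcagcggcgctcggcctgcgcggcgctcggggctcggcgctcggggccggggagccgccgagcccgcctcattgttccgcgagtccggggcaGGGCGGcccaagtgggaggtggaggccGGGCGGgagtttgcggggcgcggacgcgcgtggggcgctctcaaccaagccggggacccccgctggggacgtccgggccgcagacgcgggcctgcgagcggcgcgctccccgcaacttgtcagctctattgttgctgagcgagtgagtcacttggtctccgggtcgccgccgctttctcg
Syne3: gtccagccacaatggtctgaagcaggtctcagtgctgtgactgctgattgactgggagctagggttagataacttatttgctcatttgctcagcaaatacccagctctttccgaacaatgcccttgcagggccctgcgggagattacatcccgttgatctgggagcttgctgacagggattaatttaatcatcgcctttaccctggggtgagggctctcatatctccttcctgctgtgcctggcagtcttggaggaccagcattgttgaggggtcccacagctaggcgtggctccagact
Pigx: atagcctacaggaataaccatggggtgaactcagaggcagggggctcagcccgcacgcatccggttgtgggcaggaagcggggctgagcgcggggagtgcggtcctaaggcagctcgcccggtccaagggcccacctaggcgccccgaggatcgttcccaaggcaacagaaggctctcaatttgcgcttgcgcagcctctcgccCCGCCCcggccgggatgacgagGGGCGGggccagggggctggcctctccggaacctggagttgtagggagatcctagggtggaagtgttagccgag
The Sipa1l1 window has 48 CpG dinucleotides and a ratio of observed to expected CpG of 1.12. Tcf12 has 45 CpG at a ratio of 1.06 and Pigx has 22 at 0.671. The Syne3 window is unlike the others, with 5 CpG at a ratio of 0.238 and no GC box. The Syne3 region reached 11.1 kb upstream of that start, to position 105009790, and still lay wholly inside the gene, whose 5′ end is at 105010587. The printed Syne3 start therefore lies within the gene and is not its 5′ end.

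The regions were of modest enrichment and, on the whole, at the narrow end of the wide peaks. Their DMSO fold enrichment, the authors' ratio over background averaged over the peak, had a median of 3.61 (quartiles 3.28 to 4.00) and ran from 2.737 to 5.919. Wide peaks with an EPZ peak had a median of 5.97 (4.96 to 7.51). Region width had a median of 7438 bases (quartiles 5992 to 10594) against 11654 bases (7787 to 19527) with an EPZ peak. Among the regions 333 were 10 kb or wider, 44 reached 20 kb and 13 reached 30 kb, and 881 were below 4-fold while 15 were at 5-fold or more. The regions held 10.84 Mb, 15.9% of all bases under DMSO peaks. Their authors' −log10 q had a median of 2.90, against 9.43 in wide peaks with an EPZ peak.

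**Figure D1:**
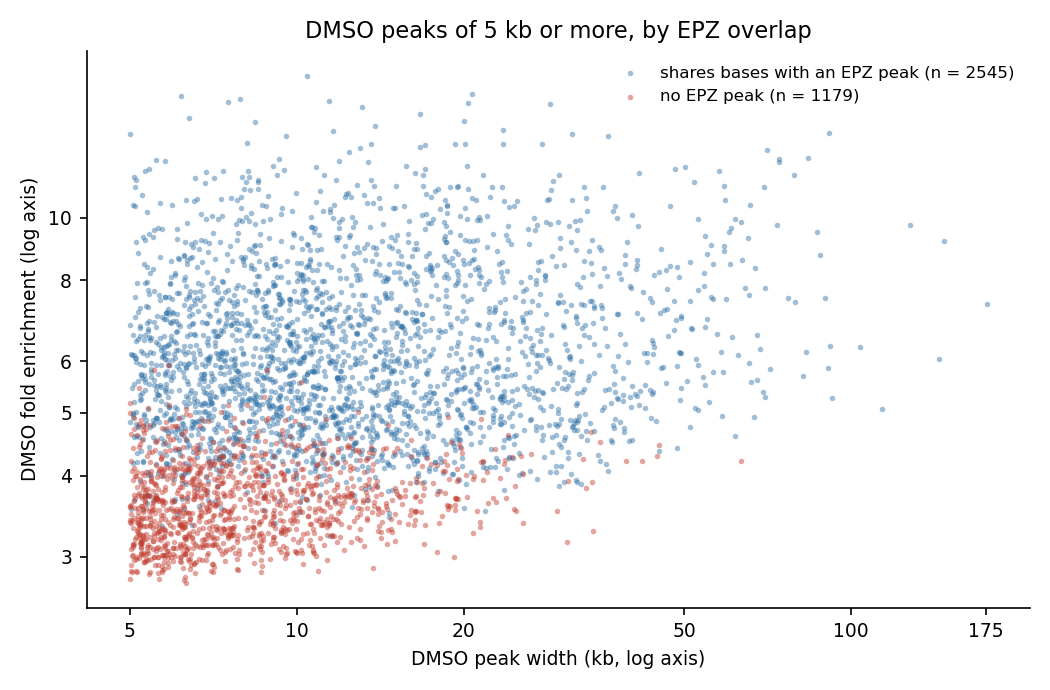
Width in kb (log axis) and DMSO fold enrichment (log axis) of each wide DMSO peak, 1 point per peak, coloured by whether an EPZ peak shares bases with it. The 1179 peaks without an EPZ peak lie between 2.737- and 5.919-fold, below most of the 2545 others, and become few above 20 kb.

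DMSO fold enrichment separated the wide peaks sharply by EPZ overlap. Below 3-fold, 76 of 76 wide peaks had no EPZ peak, and between 3- and 3.5-fold 406 of 412 had none (98.5%). The share was 84.7% (399 of 471) from 3.5- to 4-fold, 47.6% (217 of 456) from 4- to 4.5-fold and 16.3% (66 of 406) from 4.5- to 5-fold. It was 2.34% (15 of 641) from 5- to 6-fold and 0 of 1262 at 6-fold or more. The change from nearly all to nearly none therefore took place between 3.5- and 5-fold.

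Width went with overlap more gradually. Of peaks 5 to 7.5 kb wide 50.5% had no EPZ peak (594 of 1177), of those 20 to 30 kb wide 9.04% (31 of 343) and of those of 30 kb or more 4.21% (13 of 309). Within the band from 4- to 4.5-fold the share fell with width from 61.2% at 5 to 7.5 kb over 53.5% and 37.4% to 30.9% at 20 kb or more. From 4.5- to 5-fold it fell from 29.5% to 5.0% over the same width classes. From 3.5- to 4-fold the shares were 86.4%, 89.9%, 83.3% and 63.0%, so there the narrowest class was not the highest.

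**Figure D2:**
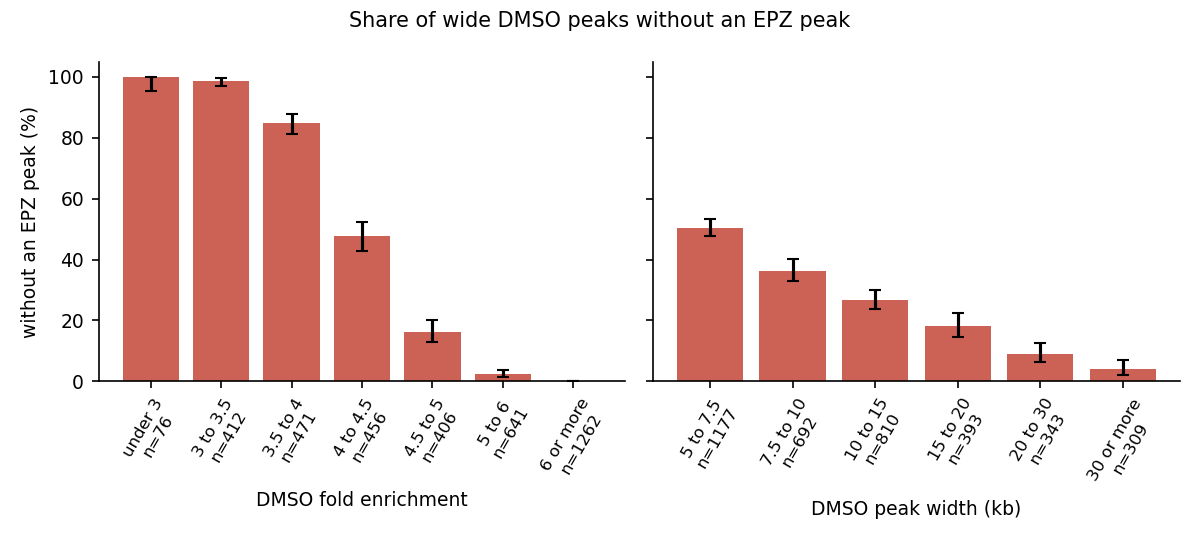
Share of wide DMSO peaks without an EPZ peak (%) by DMSO fold enrichment (left) and by width in kb (right), with exact 95% binomial intervals for counting as error bars and the number of peaks per bin under each bar. The share drops from 84.7% at 3.5- to 4-fold to 16.3% at 4.5- to 5-fold, and from 50.5% to 4.21% across the width classes.

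The values next to the limits of the rule show how continuous they are. The narrowest regions were a peak of 5000 bases in Arhgef1 at 3.39-fold, one of 5008 bases in no protein-coding gene on chromosome 11 at 3.42-fold and one of 5009 bases in Vps36 at 4.99-fold. Just below the width minimum lay peaks of 4999 bases over Tmem208 at 3.25-fold, 4998 bases in Scamp2 at 3.44-fold and 4995 bases in Tbc1d1 at 2.84-fold, none with an EPZ peak. Just beyond the overlap limit, peaks in Cherp (4.79-fold), outside coding genes on chromosome 7 (3.35-fold) and in Clptm1 (4.89-fold) shared 303, 305 and 306 bases with an EPZ peak.

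The widest region, 63.3 kb at chr12:82169954-82233243 and 4.22-fold, lay at the beginning of Sipa1l1, which encodes a GTPase-activating protein for the small GTPase Rap. It began 0.062 kb upstream of the RefSeq start, whose sequence is printed above, and ran 63.2 kb into the gene. Sipa1l1 is 282.4 kb long and held 3 further regions of 13.7, 7.81 and 11.4 kb at 3.19- to 4.08-fold. Together these 96.2 kb were the largest sum of region bases in any gene. No EPZ peak was called anywhere in the gene, and the nearest to the widest region lay 1222.1 kb away.

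Tcf12 encodes the E protein HEB, which acts in early T cell development. Its 42.0 kb region at chr9:72069358-72111310 was also 4.22-fold, covered the printed start and continued 41.8 kb into the gene. A second region of 15.1 kb lay further along, and no EPZ peak was called in the 267.6 kb gene. Tet3, a dioxygenase that oxidises 5-methylcytosine, held 3 regions of 19.7, 33.2 and 5.6 kb, of which the first lay over a start. These 58.3 kb made up most of the 61.1 kb under DMSO peaks in Tet3, at 3.68- to 4.47-fold, and the gene had no EPZ peak. Syne3, the gene of the nuclear envelope protein nesprin-3, held a single region of 33.9 kb at 4.68-fold, which was all of its DMSO-marked sequence. Dipk1a, a gene of the divergent kinase family, held 34.1 kb at 3.92-fold and likewise had no EPZ peak.

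Other very wide regions lay in genes that had EPZ peaks elsewhere. Dyrk1a, a dual-specificity kinase gene, held a 44.9 kb region at 4.46-fold (chr16:94618765-94663688) and 36.7 kb of EPZ peaks, the nearest 11.3 kb from the region. Ppm1h, a protein phosphatase gene, held 44.7 kb at 4.28-fold, beginning 42.1 kb into the gene, and 6.24 kb of EPZ peaks. In Prkch, which encodes protein kinase C eta, the region of 35.3 kb at 4.51-fold stood beside 5.18 kb of EPZ peaks. In Celf2, a splicing regulator gene of 856.6 kb, the region of 34.3 kb at 3.28-fold began 60.4 kb from a start and the gene held 37.1 kb of EPZ peaks.

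Foxp1, a transcription factor gene tied to T cell quiescence, shows both patterns in 1 gene. It held 6 regions of 6.56 to 19.3 kb at 2.83- to 4.22-fold, 73.8 kb in sum, and 22.8 kb of EPZ peaks. The EPZ peaks fell on 3 other wide DMSO peaks of the gene at 5.29-, 5.04- and 4.26-fold, so the DMSO peaks with an EPZ peak were all more enriched than each of the 6 without. The neighbouring regions of 18.7 and 19.3 kb began right behind the 5.29-fold peak.

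**Figure D3:**
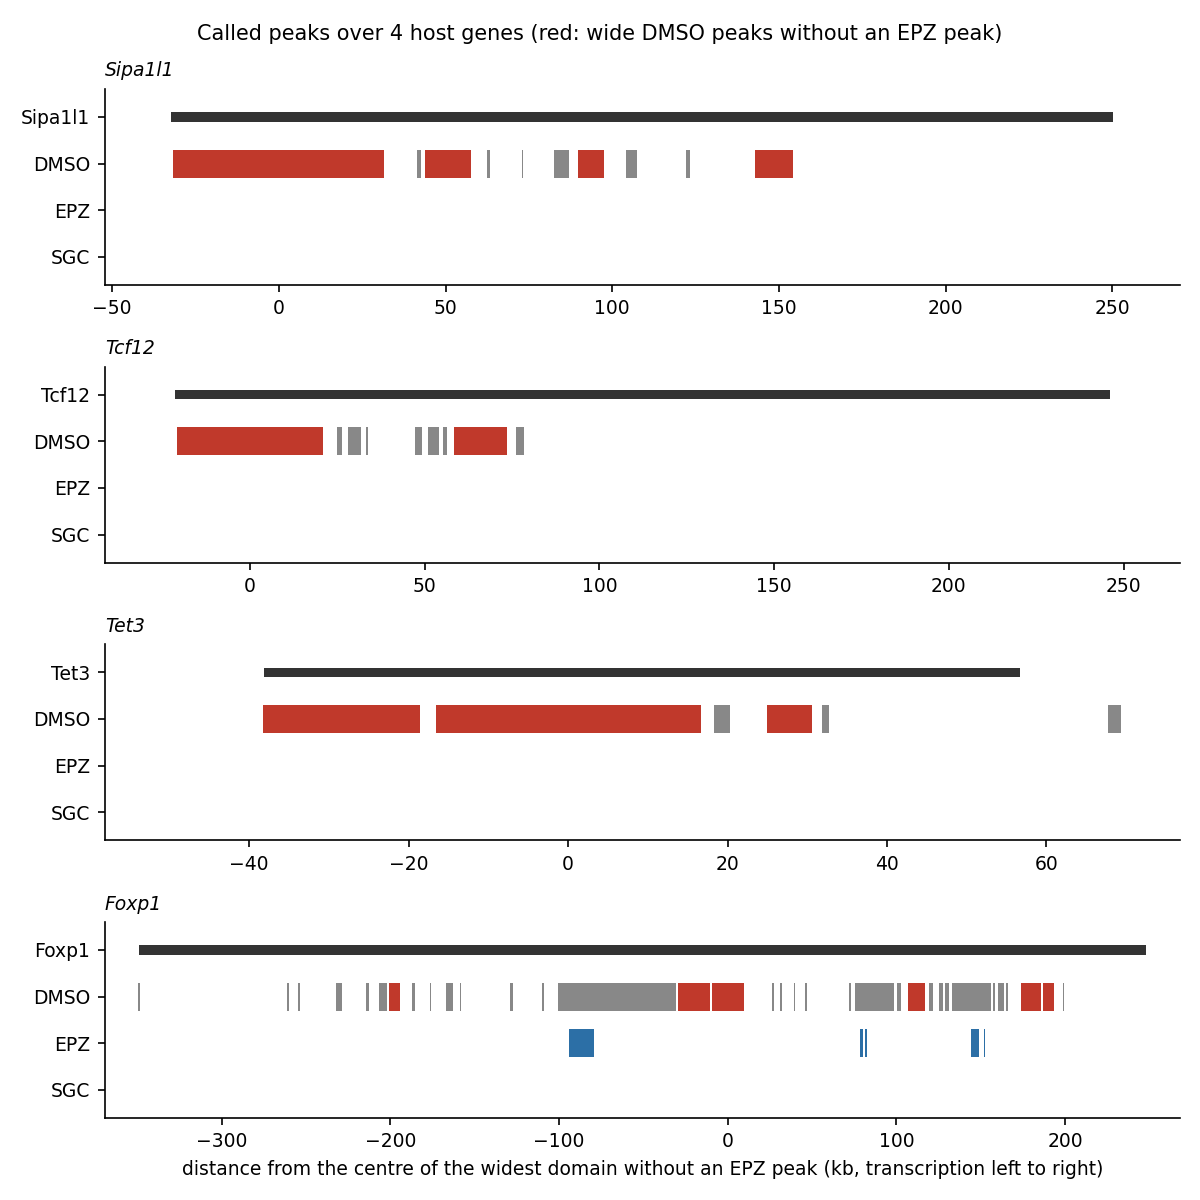
Called peaks over Sipa1l1, Tcf12, Tet3 and Foxp1, by distance in kb from the centre of the widest region, with transcription from left to right; the black bar is the gene, red bars are the regions, grey bars other DMSO peaks and blue bars EPZ peaks. Sipa1l1, Tcf12 and Tet3 have no EPZ peak, Foxp1 has 22.8 kb of EPZ peaks, all outside its 6 regions, and none of the 4 genes has an SGC peak.

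The largest sums in other genes were 72.3 kb in 6 regions of Atxn1, whose product ataxin-1 is a transcriptional corepressor, at 3.63- to 4.46-fold and with no EPZ peak in the gene. 1700025G04Rik held 58.4 kb in 5 regions beside 4.27 kb of EPZ peaks. Cdk6, a kinase gene of the G1 phase, held 55.0 kb in 4 regions at 3.58- to 3.78-fold and 22.0 kb of EPZ peaks. Gramd1b, a sterol transporter gene, held 45.5 kb in 2 regions. Arhgap26 held 48.4 kb in 3 regions with no EPZ peak. In all, 137 genes held 2 or more regions and 10 held 4 or more, and the most was 6.

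The 10 regions of highest enrichment were 5.02 to 10.2 kb wide, around the median width of all regions. Git1, a scaffold and GTPase-activating protein for ARF, held 5.87 kb at 5.92-fold (chr11:77493770-77499640), beginning 0.358 kb downstream of a start. Sema4b, a semaphorin gene, held 8.86 kb at 5.82-fold only 2.92 kb from an EPZ peak, and Ttll12, a gene of the tubulin tyrosine ligase family, held 5.54 kb at 5.82-fold with the nearest EPZ peak 441.0 kb away. Prex1, a Rac exchange factor gene, followed at 5.57-fold and Ncbp3, a gene of an mRNA cap-binding protein, at 5.46-fold. Ptprj, which encodes the receptor phosphatase CD148, had 5.29-fold and Klhl21, an adaptor of cullin-3, had 5.18-fold. The last 3 of the 10, at 5.13- to 5.14-fold, each spanned more than 1 gene: Pigx with Cep19, C1qtnf5 with Mfrp and Rnf26, and Arel1 with Fcf1. Of these 10, Sema4b and Prex1 alone had an EPZ peak elsewhere in the main host gene.

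Nearly all regions lay in genes, and most lay inside a single long one. A protein-coding gene shared bases with 1149 of 1179 regions (97.5%), against 2490 of 2545 wide peaks with an EPZ peak (97.8%). More than 1 gene was touched by 83 regions (7.04%) but by 461 wide peaks with an EPZ peak (18.1%). The region lay wholly inside its host gene, the gene with most shared bases, in 1015 of 1149 cases (88.3%) against 1340 of 2490 (53.8%). Host genes had a median length of 61.7 kb (n = 963) against 31.8 kb (n = 2437). Counted once per peak instead of once per gene, the medians were 71.0 and 32.6 kb, and they varied with enrichment. From 3- to 3.5-fold, where 6 wide peaks had an EPZ peak, they were 87.7 kb without and 42.3 kb with one. From 3.5- to 4-fold the medians were 69.9 kb without and 56.2 kb with an EPZ peak, from 4- to 4.5-fold 53.0 and 48.2 kb, and from 4.5- to 5-fold the order turned, at 31.7 and 44.2 kb. From 5- to 6-fold they were 27.0 and 37.6 kb.

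The regions ranged from the beginning of the gene to far into it. The distance classes used here are of unequal width, so their shares do not show how densely regions lay along the gene. For 923 regions the promoter table held a start of the host gene. The region covered a start in 165 (17.9%), began up to 2 kb downstream of one in 330 (35.8%), began 2 to 10 kb downstream in 83 (8.99%) and began over 10 kb downstream in 331 (35.9%). Of 2035 wide peaks with an EPZ peak, 60.5% covered a start, 35.0% began up to 2 kb downstream and 3.39% began over 10 kb downstream. At equal enrichment the share over a start was lower, and the share over 10 kb downstream higher, in the regions than in wide peaks with an EPZ peak in each of the 3 bands from 3.5- to 5-fold, but by less. From 3.5- to 4-fold, 22.0% and 33.9% covered a start and 28.9% and 10.7% began over 10 kb downstream. From 4- to 4.5-fold, 29.2% of the regions and 41.9% of the wide peaks with an EPZ peak covered a start, and 12.9% and 4.47% began over 10 kb downstream. From 4.5- to 5-fold the shares over a start were 41.2% and 50.0%, with overlapping intervals of 27.6 to 55.8 and 43.9 to 56.1. From 5- to 6-fold, where few regions lie, 2 of 14 covered a start (14.3%) against 56.6%, a gap as wide as over all bands. Many of these regions lay close to a start without covering it. Those of Git1, Ttll12, Ncbp3, Ptprj and Klhl21 began 0.003 to 0.819 kb downstream of one. That of Arel1 reached past the gene's 5′ end but covered no listed start. Those of C1qtnf5, Sema4b and Prex1 began 3.34 to 57.7 kb downstream.

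These positions differed by whether the host gene had an EPZ peak outside the region. The split uses EPZ peaks, as the rule does, and wide peaks with an EPZ peak lay mostly at or near starts. The differences are therefore not independent of the rule and are given as a description. Where the host gene had no EPZ peak, 25.8% of 604 regions covered a start and 53.1% began up to 2 kb downstream, while 10.8% began over 10 kb downstream. Where the host gene had an EPZ peak outside the region, 2.82% of 319 covered a start and 83.4% began over 10 kb downstream. The first kind had a median fold enrichment of 3.74 and the second of 3.38. Their host genes also differed in length, with medians of 56.8 and 106 kb counted once per region. In 230 of 250 genes with both an EPZ peak and a region and with a listed start (92.0%), the first EPZ peak began further upstream than the first region. In Sema4b, Prex1, Ppm1h and Celf2, for example, the region began 6.79, 57.7, 42.1 and 60.4 kb downstream of a start.

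**Figure D4:**
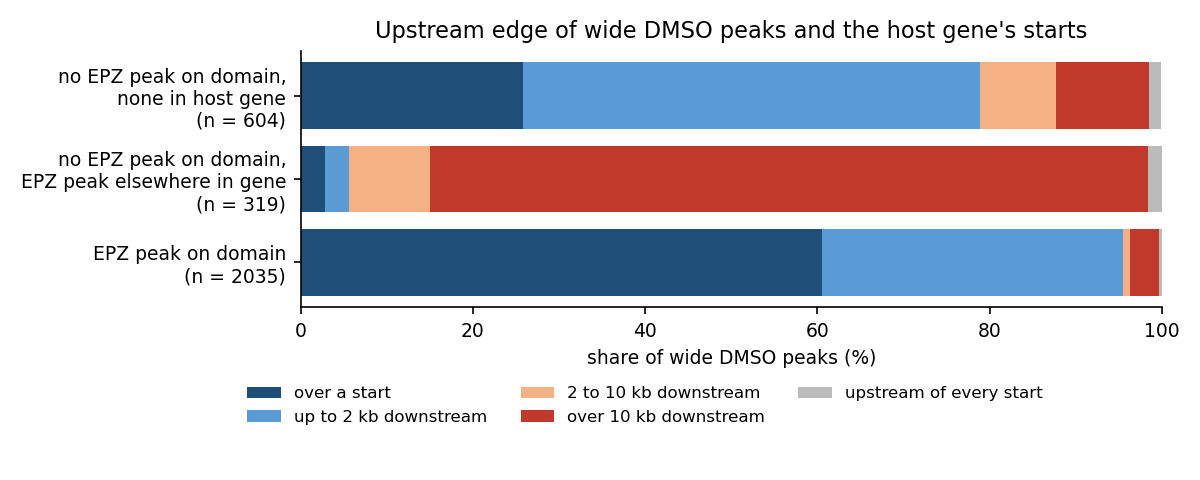
Share (%) of wide DMSO peaks by the position of their upstream edge relative to the starts of the host gene, for regions whose host gene has no EPZ peak (n = 604), regions whose host gene has an EPZ peak elsewhere (n = 319) and wide peaks with an EPZ peak (n = 2035). Over 10 kb downstream lie 10.8%, 83.4% and 3.39% of the peaks.

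In all, 1049 protein-coding genes held a region, 13.9% of the 7563 genes with a DMSO peak. Of these, 746 (71.1%) had no EPZ peak anywhere in the gene, beside 4077 of all 7563 DMSO-marked genes (53.9%). The rule removes EPZ peaks from part of each such gene, so these shares are not independent of it. The 746 were 18.3% of the 4077 marked genes without an EPZ peak. Genes over 100 kb made up 26.6% of the 1049 (279 genes) and 10.2% of all marked genes (768).

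The 303 genes (28.9%) with an EPZ peak outside the region were longer, at a median of 92.8 kb against 45.1 kb for the 746. They had a median of 36.5 kb under DMSO peaks, of which 8.638 kb were in regions, and 5.115 kb under EPZ peaks. Region bases outnumbered EPZ bases in 218 of the 303 (71.9%). The width minimum applied to regions and not to EPZ peaks, which favours region bases in such a comparison. This count and the medians of region and EPZ bases are therefore not independent of the rule and are given as a description. When DMSO peaks up to 5 kb apart were first joined, an alternative added after the data were seen, 12.4% of the host genes had an EPZ peak elsewhere in place of 28.9%. The share of host genes with both kinds of peak thus depends on where the caller split neighbouring DMSO peaks.

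Genes of 27 functional and marker lists are described by their counts, beside the 13.9% of all marked genes that held a region. Over all lists 132 of 668 DMSO-marked members (19.8%) held one. Of the 132, 76 had no EPZ peak in the gene, beside 746 of all 1049 host genes (71.1%). Host genes were long (above), so the median gene length of each list's marked members is given with its counts, beside 23.4 kb for all marked genes. None of these counts was tested against other genes.

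**Figure D5:**
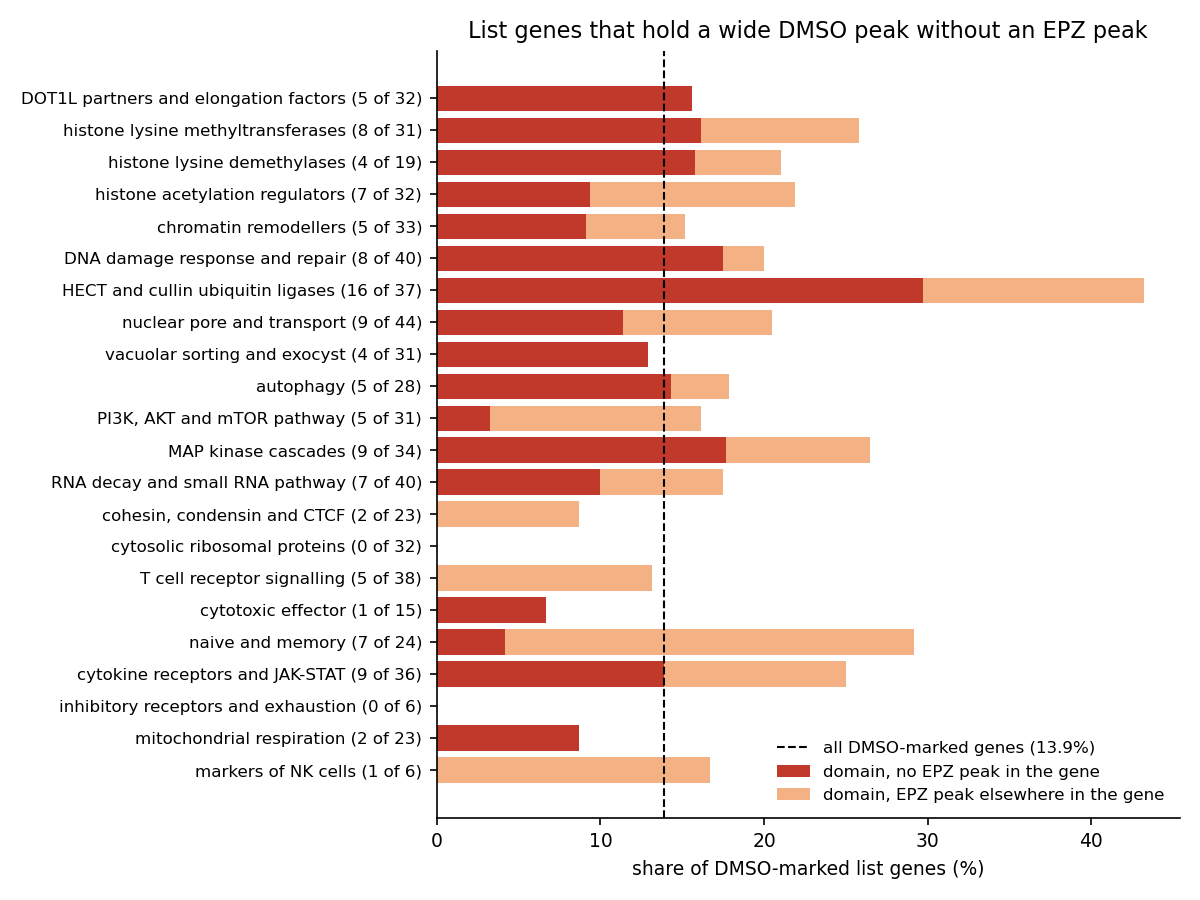
Share (%) of DMSO-marked members of each gene list that hold a region, split by whether the gene has an EPZ peak elsewhere, with the counts beside each name and the share in all marked genes (13.9%) as a dashed line; lists with fewer than 6 marked members and 1 list not reported here are left out. Among the lists shown, HECT and cullin ubiquitin ligases (43.2%) have the highest share, and ribosomal proteins and inhibitory receptors have none.

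DOT1L's partners held regions in a share near that of all marked genes. Of 32 marked genes for DOT1L-associated and elongation factors (median length 30.7 kb) 5 held a region (15.6%), and none of the 5 had an EPZ peak. Mllt10 encodes AF10, the cofactor that raises DOT1L to higher methylation states. It held 3 regions of 8.17 to 12.0 kb, 31.0 kb in sum, at 3.22- to 3.56-fold. Aff1 and Aff4, scaffolds of the super elongation complex, held 16.3 kb in 2 regions at up to 3.57-fold and 13.4 kb at 3.45-fold. Rtf1, a factor of the PAF1 complex, held 9.42 kb at 4.64-fold. The fifth member was Mllt1, which encodes ENL.

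In the other chromatin lists the share with a region ran from 8.7% in cohesin and condensin genes to 25.8% in lysine methyltransferases. Among the latter (median length 50.9 kb), 8 of 31 did, 5 of them without an EPZ peak in the gene. Ash1l, an H3K36 methyltransferase gene, held 12.4 kb at 3.33-fold, Ehmt1, for the H3K9 enzyme GLP, 11.4 kb in 2 regions, Smyd2 11.4 kb at 3.65-fold and Smyd3 8.44 kb at 4.2-fold. Of these 4, Ash1l alone had an EPZ peak, of 0.379 kb. Demethylases (69.1 kb) held regions in 4 of 19 genes: Phf2 held 33.3 kb in 3 regions at up to 4.41-fold, Jmjd1c 23.3 kb, Kdm4c 10.3 kb and Kdm7a 5.08 kb. The whole DMSO-marked length of Phf2 was in its 3 regions.

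Histone acetylation regulators, of median length 33.4 kb, held regions in 7 of 32 genes. The nuclear receptor coactivator gene Ncoa2 had 6, of 40.4 kb in sum at 2.98- to 3.72-fold, beside 2.49 kb of EPZ peaks. The bromodomain gene Brd3 held 8.89 kb at 3.91-fold and the deacetylase gene Hdac2 8.79 kb at 4.08-fold, both without an EPZ peak. Remodellers (73.5 kb) had 5 of 33, among them Chd7 with 29.2 kb in 2 regions and no EPZ peak, Baz1a with 14.8 kb, Arid1b with 6.03 kb and Smarcb1 with 5.53 kb. Cohesin and condensin genes (46.4 kb) had 2 of 23, both with EPZ peaks elsewhere: the cohesin loader gene Nipbl with 15.4 kb and Stag1 with 9.06 kb.

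Ubiquitin ligases of the HECT and cullin classes held regions in 16 of 37 marked genes (43.2%), 11 of them without an EPZ peak, and the marked members had a median length of 93.4 kb. Trip12, a HECT ligase gene, held 27.5 kb in 3 regions at 3.31- to 4.46-fold. Cul1, the scaffold of SCF ligases, held 25.1 kb in 2 regions at 3.67- and 3.89-fold, nearly all of its 26.16 kb under DMSO peaks. Neither had an EPZ peak. Huwe1 held 19.6 kb at 3.68-fold and 3.05 kb of EPZ peaks, and Cbl, a RING ligase that restrains T cell receptor signalling and was listed with them, held 18.8 kb in 2 regions and 13.3 kb of EPZ peaks.

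In MAP kinase cascades 9 of 34 marked genes (median length 57.6 kb) held a region and 6 of the 9 had no EPZ peak. Map3k2 held 20.8 kb at 3.95-fold. The Ras exchange factor gene Sos1 held 16.6 kb in 2 regions, which was all of its marked length. Map2k1, which encodes MEK1, held 12.9 kb in 2 regions, and Map3k7, which encodes TAK1, 11.3 kb at 4.43-fold. None of these 4 had an EPZ peak. In the PI3K, AKT and mTOR pathway (53.4 kb) 5 of 31 held a region and 4 of these had an EPZ peak elsewhere, among them Gsk3b with 18.7 kb in 2 regions, the regulatory subunit gene Pik3r1 with 10.0 kb and the lipid phosphatase gene Inpp5d with 6.76 kb. Foxo3, at 9.35 kb and 3.61-fold, was the member without one.

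T cell receptor signalling genes, all 38 of them marked and of median length 46.7 kb, held regions in 5, near the background share, and every one of the 5 had EPZ peaks elsewhere. Themis held 9.92 kb at 3.51-fold beside 40.5 kb of EPZ peaks. The kinase gene Fyn held 8.71 kb at 3.23-fold beside 41.9 kb, and the phosphatase gene Ptpn22 6.63 kb beside 17.7 kb. Ptprc, which encodes CD45, had a region of 5.62 kb at 2.91-fold and 60.2 kb of EPZ peaks. Over the whole list 37 of 38 genes had an EPZ peak, beside 3486 of all 7563 DMSO-marked genes (46.1%). The list as a whole kept called peaks while these stretches of 5 of its genes did not.

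Transcription factor genes of naive and memory cells, of median length 47.1 kb, held regions in 7 of 24, and 6 of the 7 had an EPZ peak elsewhere, Tcf12 being the exception. Beside Foxp1 and Tcf12, Bach2, a repressor that restrains effector differentiation, held 26.0 kb in 2 regions at 3.44- and 3.99-fold with 3.68 kb of EPZ peaks. Lef1, a partner of beta-catenin, held 25.6 kb in 2 regions at 3.35- and 4.61-fold with 2.85 kb of EPZ peaks. Cytokine receptor and JAK-STAT genes (31.8 kb), with the TGF-beta pathway, held regions in 9 of 36, of which 5 had no EPZ peak. Smad3 held 28.0 kb in 4 regions at 2.84- to 4.16-fold and 4.76 kb of EPZ peaks. The receptor genes Tgfbr1 (13.5 kb, 3.95-fold) and Il6st (9.1 kb, 4.87-fold) and the kinase gene Jak2 (10.2 kb, 3.52-fold) had no EPZ peak.

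The effector gene lists were small. Of 15 marked cytotoxic effector genes, whose median length was 7.95 kb, Lamp1 alone held one, of 5.9 kb at 4.0-fold and without an EPZ peak. Of 6 marked inhibitory receptor and exhaustion genes (29.9 kb) none did. With so few members, nothing is read from these counts beside the background share of 13.9%. Of 6 marked natural killer cell markers (14.6 kb) Cd226, an activating receptor that CD8 T cells also carry, held 23.6 kb in 2 regions at 2.84- and 4.35-fold with 4.65 kb of EPZ peaks. None of the marked B cell (1, of 4.36 kb) and CD4 T cell (3, of median length 30.9 kb) markers held a region.

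Regions were absent from the list with the shortest genes. The 32 cytosolic ribosomal protein genes, at a median of 3.74 kb, had 0 regions. All 32 had an EPZ peak, beside 46.1% of all DMSO-marked genes. Mitochondrial respiration genes (15.1 kb) had 2 of 23, Ndufv2 with 11.5 kb at 4.12-fold and Cox6c with 5.29 kb. Nuclear pore and transport genes (48.2 kb) had 9 of 44, for example Nup153 with 11.3 kb, Ipo11 with 9.46 kb, Kpna3 with 7.88 kb and Nup205 with 7.72 kb at 4.92-fold. DNA repair genes (43.1 kb) had 8 of 40, of which 7 had no EPZ peak. These included the helicase gene Wrn with 11.0 kb and the ubiquitin ligase gene Rnf8 with 6.01 kb, while Msh6 held 7.16 kb and an EPZ peak of 1.42 kb.

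RNA decay and small RNA genes (46.0 kb) had 7 of 40. All 3 TNRC6 genes, partners of Argonaute in silencing, held regions, with 35.6 kb in 3 regions in Tnrc6b, 17.9 kb in Tnrc6a and 16.0 kb in Tnrc6c, and Dicer1 held 12.5 kb at 4.14-fold. Tnrc6a and Dicer1 had no EPZ peak. Autophagy genes (29.8 kb) had 5 of 28, with Uvrag at 14.3 kb, Atg4b at 11.4 kb, Ambra1 at 7.04 kb and Atg2b at 6.44 kb. Vacuolar sorting and exocyst genes (36.7 kb) had 4 of 31, all 4 without an EPZ peak: Vps37c at 16.1 kb, Exoc4 at 12.7 kb, Vps36 at 5.01 kb and Vps37a at 2.66 kb within the gene.

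Regions outside protein-coding genes were few. Of 30 such regions 17 lay in another annotated gene, 16 of them in a long noncoding RNA (lncRNA), and 13 in none. The widest was 39.3 kb at 4.22-fold in Lncpint (chr6:31180947-31220249), a lncRNA known as a p53 target. Morrbid, a lncRNA next to Bcl2l11 that is known for myeloid cell lifespan, held 24.9 kb at 3.53-fold. A region of 22.8 kb at chr7:98552951-98575790 lay in no annotated gene, and Gm12216 and 2610035D17Rik held 16.4 and 12.0 kb. After its values were seen, Pvt1, a lncRNA next to Myc, was singled out because it held 3 regions, of 11.1, 9.58 and 6.84 kb. Lncpint likewise held 3, of 39.3, 6.11 and 5.86 kb. There were 8 miRNA genes under the regions, each within 1 region, of 139 under all DMSO peaks. The regions held 15.9% of all bases under DMSO peaks.

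Most regions lay far from any EPZ peak. The nearest EPZ peak lay at a median of 59.3 kb (quartiles 21.4 to 209 kb), at least 1134 bases and at most 9038 kb away. It lay within 10 kb in 131 regions (11.1%) and beyond 100 kb in 453 (38.4%). The nearest other DMSO peak was much closer, at a median of 1914 bases. Across chromosomes the share of wide peaks without an EPZ peak ran from 23.9% on X (16 of 67) to 37.7% on chromosome 12 (58 of 154), and the single wide peak on Y had an EPZ peak. The intervals of X (14.3 to 35.9) and 12 (30.0 to 45.8) overlap.

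Promoters of the host genes were of the CpG-rich kind, as were those of genes with an EPZ peak. At the 5′-most RefSeq start, the observed to expected CpG ratio had a median of 0.85 in 853 host genes, 0.84 in 2165 genes that lay only under wide peaks with an EPZ peak and 0.577 in all 17492 protein-coding genes of the table. A ratio above 0.6 was found in 82.8%, 79.6% and 48.4%. The letters TATAAA, on either strand, were in 4.81%, 6.37% and 13.3% of the 300-base windows, and the GC box GGGCGG in 73.2%, 67.5% and 46.3%. CCAAT was in 36.3%, 38.1% and 39.2%, and the E-box CACGTG in 10.8%, 9.79% and 7.91%. CCGGAAGT, bound by ETS factors, was in 7.5%, 9.7% and 5.28%, GCGCATGC, bound by NRF1, in 5.98%, 6.0% and 3.61%, and AAGATGGC, bound by YY1, in 5.39%, 6.28% and 3.21%. The host genes differed from all genes in CpG content far more than from the marked genes with an EPZ peak. A match is a description of letters and not a bound site.

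No SGC peak fell on the regions. Of 1179 regions 0 shared a base with an SGC peak, against 38 of the 2545 wide peaks with an EPZ peak (1.49%). Elsewhere in the 1049 host genes SGC peaks were called in 2, Ptprc and Zc3hav1, the latter named after its value was seen. The EPZ and SGC lists were called separately and were compared with the same DMSO list, and their depths are unknown, so their numbers are set side by side with no test.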

How the data were processed

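H3K79me2 was profiled by ChIP-seq in 6 immunoprecipitates and 6 inputs. Only the 3 deposited broad peak lists, 1 per treatment and taken as pooled over its replicates, were used. Per the submitters' processing notes, the tools included MACS2 2.2.7.1, BWA 0.7.17-r1188 and Picard, with sacCer3 and mm10 (GRCm38) as builds. How replicates were pooled, inputs used, the yeast spike-in applied and thresholds set is not given in the sources used here. In the deposited lists, the authors' fold enrichment (a ratio over background) and −log10 q are averages over a peak, in the column layout of MACS2 broad peaks. The deposited score was not used. An unequal depth or background between lists changes which peaks are called, so fold enrichment was used only within the DMSO list.

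Overlap was at least 1 shared base, computed in Python 3.11.15 with numpy 2.4.6 and pandas 2.3.3 and checked on simulated data against bedtools 2.31.1. Exact 95% intervals came from scipy 1.17.1. Genes were the 21900 protein-coding RefSeq genes on GRCm38.p6, where the table gives no exons. Starts and strands came from RefSeq promoter windows, which held starts for 923 of 1149 regions in genes and none on chromosome 18. Of 828 listed genes 827 matched. Some list members and 1 list are not reported here. Named were the 10 widest regions, the 10 of highest fold, the 10 genes with most region bases, the 3 peaks at each limit, up to 4 members per list and the 5 widest noncoding regions. The rest are named as exceptions to a count of 5 or fewer. The regions, lists and rules were chosen with earlier results of these data known. Alternatives were other widths, overlap rules, q minimums, joining distances and gene assignment.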

Additional observations from a re-analysis of the deposited data

How the results depend on the processing

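Of 92 values recomputed under 10 settings 42 moved, a count by over 1.5 times and another value beyond its interval for counting, as did 66 of 243 counts of single lists. With a width minimum of 10 kb, 333 regions (18.0% of wide peaks) remained, at a median of 3.72-fold, in 306 host genes, 32.7% of them with an EPZ peak elsewhere. List members were then 43, the share without an EPZ peak below 4-fold was 86.3% in place of 91.9%, and the median distance to an EPZ peak was 72408 bases. A minimum of 4 kb gave 36.5% and 3.56-fold. Counting EPZ cover under 10% as none gave 39.3%, 3.75-fold and 97.0% below 4-fold. Under this setting 40.7% of host genes had an EPZ peak, counted anywhere in the gene and so also on the regions themselves. The median distance of 38264 bases likewise includes regions that overlap an EPZ peak, so neither value compares with the main one. Requiring no EPZ peak within 10 kb gave 28.1%, 23.3% of host genes, 81.3% below 4-fold and 75817 bases. A −log10 q of at least 5 in DMSO left 85 regions (3.63%) at 4.77-fold in 100 genes, 15.0% of them with an EPZ peak elsewhere, with 10 list members, a CpG ratio of 0.82 and 51879 bases. Below 4-fold it left 1 wide peak, which had an EPZ peak (0.0% without), so the higher share at low fold could not be seen there. The same minimum in EPZ gave 2389 regions (64.2%) at 4.25-fold in 2274 genes, 6.82% of them with an EPZ peak elsewhere, with 254 list members, 99.8% below 4-fold and 244343 bases. The number of regions thus follows the calling threshold of either list. Joining DMSO peaks up to 5 kb apart, added after the data were seen, gave 33.8%, 3.43-fold, 12.4% of host genes with an EPZ peak elsewhere, 86.1% below 4-fold and 99332 bases. Joining peaks up to 1 kb apart changed none of these values, and 0 of the 1179 regions had another DMSO peak within 1 kb. Counting only starts under a region gave a CpG ratio of 0.826.

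No paired analysis was possible because each treatment has 1 pooled peak list, although the labels number the replicates alike. Leaving out a replicate could not be run for the same reason. Depth is unknown, so a weak EPZ signal below the calling threshold and no signal cannot be told apart.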
